A study of Hordeum vulgare with 12 samples.

Results

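Barley genes annotated to the response to water deprivation, but to none of abscisic acid (ABA) signalling, heat, cold, cold acclimation, ethylene signalling, water channel activity and glutathione transferase activity, numbered 81 of the 30157 genes in the deposited table. They were chosen by their ontology terms, with at least 1 FPKM (fragments scaled by gene length and library size) in at least 3 of the 12 libraries. Genes of ABA biosynthesis and the genes HORVU0Hr1G016540 and HORVU3Hr1G085760 were left out by the same rule. The term was carried by 308 genes in all, and the rule without the FPKM filter held 129, of which 48 stayed below the filter. Just inside the filter lay HORVU1Hr1G052150, HORVU0Hr1G003810 and HORVU2Hr1G009830, whose third-highest libraries stood at 1.05, 1.15 and 1.23 FPKM. Just outside it lay HORVU3Hr1G088110, HORVU6Hr1G087410 and HORVU0Hr1G039840, at 0.999, 0.914 and 0.856 FPKM.

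The libraries came from leaf of Hordeum vulgare in 4 groups of 3. These were accession BCS8 in control (labelled ck), BCS8 under drought, accession BCS24 in control and BCS24 under drought. The sources used here give no drought protocol, plant age or origin of the replicates, so p-values measure the spread between these samples, which may be technical. Library totals ran from 49553836 to 61212440 counts, and the members took 0.969% to 2.01% of a library's counts. The light-harvesting gene HORVU6Hr1G033160, a marker of green tissue, stood at 641 FPKM or more in each of the 12 libraries.

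Plants short of water close their stomata, adjust the solutes of the vacuole and seal the leaf surface with wax and cutin. ABA drives much of the change in gene expression, and further routes run through light receptors, protein turnover, ion pumps at the vacuole membrane and defence proteins of the cell wall. The members fell into 17 groups by the roles the table gives them. A description was given for 24 of the 81, and for the rest roles were read from ontology terms and orthology numbers. An ontology term records how a gene was annotated, often from another plant, and not what it does in barley leaf. In bulk leaf RNA, fewer cells of a type and less RNA per cell cannot be told apart.

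In BCS8, drought raised 3 of the 81 members and lowered 0 (edgeR quasi-likelihood test, adjusted p below 0.05). The 3 are 3.7% of the members, where 1.53% of all 17342 tested genes were called in either direction, 0.998% higher and 0.536% lower. HORVU3Hr1G089290, HORVU5Hr1G072920 and HORVU2Hr1G076970 were the risen genes. At an unadjusted p below 0.05, 12 members were higher and 8 lower (24.7% in all, beside 16.3% of all tested genes). DESeq2 called 9 higher and 2 lower (13.6%, beside 6.83%). The FPKM of control and drought did not overlap for 12 members on the higher side (14.8%, beside 7.83% of all tested genes) and 11 on the lower side (13.6%, beside 11.9%). The median log2 fold change was 0.15 over the members and 0.02 over all tested genes.

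HORVU3Hr1G089290 (3H, 628015105 to 628016247, minus strand) carries terms for salt stress and for embryo development ending in seed dormancy, and no description. It stood at 10.8, 13.1 and 18.1 FPKM in the BCS8 control libraries and at 51.8, 88.4 and 27.2 FPKM under drought. The lowest drought library was above the highest control. The log2 fold change was 2.02 ± 0.34 (SE, edgeR adjusted p = 0.0262). In BCS24 the same gene stood at 11.8, 11.1 and 11.4 FPKM in control and at 15.1, 13.7 and 13.0 FPKM under drought, a log2 fold change of 0.41 ± 0.33 (edgeR adjusted p = 0.537).

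HORVU5Hr1G072920 (5H, 536933399 to 536936238, plus strand) encodes an A20/AN1 zinc finger protein, a family known in rice for stress responses and annotated here with ubiquitin transfer. It rose from 10.2, 9.62 and 8.66 FPKM to 22.1, 14.4 and 21.9 FPKM in BCS8 (1.08 ± 0.18, edgeR adjusted p = 0.0262). The groups did not overlap in BCS8, while in BCS24 control and drought overlapped, at 9.26, 11.8 and 10.9 FPKM against 10.4, 8.71 and 11.4 FPKM. Its relatives HORVU1Hr1G032850 and HORVU7Hr1G050270 did not pass in any of the 6 comparisons.

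HORVU2Hr1G076970 (2H, 556516132 to 556523969, plus strand) is described as a pentatricopeptide repeat protein, a class of RNA-binding proteins of mitochondria and chloroplasts. It rose from 4.23, 3.45 and 4.84 FPKM to 7.25, 8.64 and 9.08 FPKM in BCS8 (1.03 ± 0.19, edgeR adjusted p = 0.0300). In BCS24 it moved from 2.52, 2.95 and 2.95 FPKM to 3.74, 5.26 and 3.25 FPKM. The BCS24 groups did not overlap either, but the change there was not past the threshold (0.66 ± 0.19, edgeR adjusted p = 0.0881).

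The BCS8 calls were lost when single libraries were left out. Without BCS8 control 1, control 2, control 3 or drought 1, and without BCS24 control 3, 0 of the members passed. Without BCS24 drought 1 there was 1. Calls over all tested genes fell too, from 173 higher and 93 lower with all libraries. They were 0 and 0, 96 and 82, 22 and 11, 50 and 34, and 40 and 14 in the order above. Without BCS24 drought 1 they were 71 and 42. The log2 fold changes of HORVU3Hr1G089290 stayed between 1.55 and 2.34 over the alternatives. The share of counts in rRNA genes ran from 0.520% to 0.997% in BCS8 control and from 0.918% to 2.22% under drought, and 0 members passed once the fit held that share as a covariate, beside 0.167% of all tested genes. The further part of rRNA share in the rises was not tested.

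In BCS24, drought again raised 3 members and lowered 0, beside 2.65% of all tested genes called, 1.4% higher and 1.25% lower. These were HORVU7Hr1G028910, HORVU3Hr1G032160 and HORVU4Hr1G065920, and none of them was among the 3 called in BCS8. At an unadjusted p below 0.05, 15 members were higher and 6 lower (25.9% in all, beside 20.6% of all tested genes). DESeq2 called 7 higher and 2 lower (11.1%, beside 10.4%). Limma on log2(FPKM + 1) called 2 higher and 1 lower, beside 1.01% of all tested genes higher and 3.4% lower. On that scale the median of all tested genes in this comparison lay at −0.10, and at −0.13 with a pseudocount of 0.1, against 0.00 in edgeR. The median over the members was 0.10 in edgeR. FPKM did not overlap for 9 members on the higher side (11.1%, beside 7.69% of all tested genes) and 16 on the lower side (19.8%, beside 23.2%).

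HORVU7Hr1G028910 (7H, 53818779 to 53823921, plus strand) carries the orthology number and terms of the vacuolar proton-pumping pyrophosphatase, which uses the energy of pyrophosphate to acidify the vacuole. The table types it as a coding sequence that is not translated. Its BCS24 control libraries stood at 11.5, 11.2 and 9.46 FPKM and its drought libraries at 35.0, 39.4 and 14.9 FPKM. The rise was 1.59 ± 0.31 (edgeR adjusted p = 0.0330). In BCS8 it stood at 30.7, 47.1 and 28.8 FPKM in control and at 43.9, 34.9 and 34.1 FPKM under drought, where the groups overlapped (0.13 ± 0.30). The BCS24 control libraries were thus the 3 lowest of the 12.

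HORVU3Hr1G032160 (3H, 163379460 to 163399865, minus strand) is a beta-amylase, an enzyme that releases maltose from starch. It rose from 8.92, 7.40 and 6.93 FPKM in BCS24 control to 12.9, 12.7 and 9.58 FPKM under drought (0.72 ± 0.13, edgeR adjusted p = 0.0243). The 6 BCS8 libraries lay between 12.1 and 14.6 FPKM. Its gene span holds the whole of the transcription factor gene HORVU3Hr1G032170 on the other strand, over 4840 bases. The beta-amylase transcript with 96.0% of the gene's counts spans 163388734 to 163399664 and does not overlap that neighbour, whose span stops at 163386815. The second beta-amylase, HORVU4Hr1G084390, stood at 0.33 in BCS8 and −0.28 in BCS24 and passed in neither.

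HORVU4Hr1G065920 (4H, 549090371 to 549094817, minus strand) carries the terms of squalene monooxygenase, an early enzyme of sterol synthesis. Control libraries of BCS24 stood at 44.9, 42.6 and 36.0 FPKM and drought libraries at 57.9, 58.4 and 49.2 FPKM. The groups lay apart, with a log2 fold change of 0.54 ± 0.11 (edgeR adjusted p = 0.0393). BCS8 overlapped, at 47.8, 43.5 and 47.9 FPKM against 51.3, 45.9 and 53.3 FPKM.

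The BCS24 calls also changed when single libraries were left out. Leaving out BCS24 control 2, control 3, drought 1 or drought 2 left 0 members past the threshold, and leaving out BCS8 control 1 left 1. Without BCS8 drought 2 there were 6, and without BCS8 drought 3 there were 5. All tested genes had 243 higher and 217 lower calls with all libraries. In the same order of fits they had 9 and 18, 5 and 14, 15 and 23, 32 and 35, and 100 and 92. Without BCS8 drought 2 they had 280 and 273, and without BCS8 drought 3 they had 342 and 332. rRNA share ran from 0.531% to 2.07% in BCS24 control and from 0.202% to 0.658% under drought. With it as a covariate 0 members passed, beside 0.0865% of all tested genes, and its further part was not tested.

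**Figure D1:**
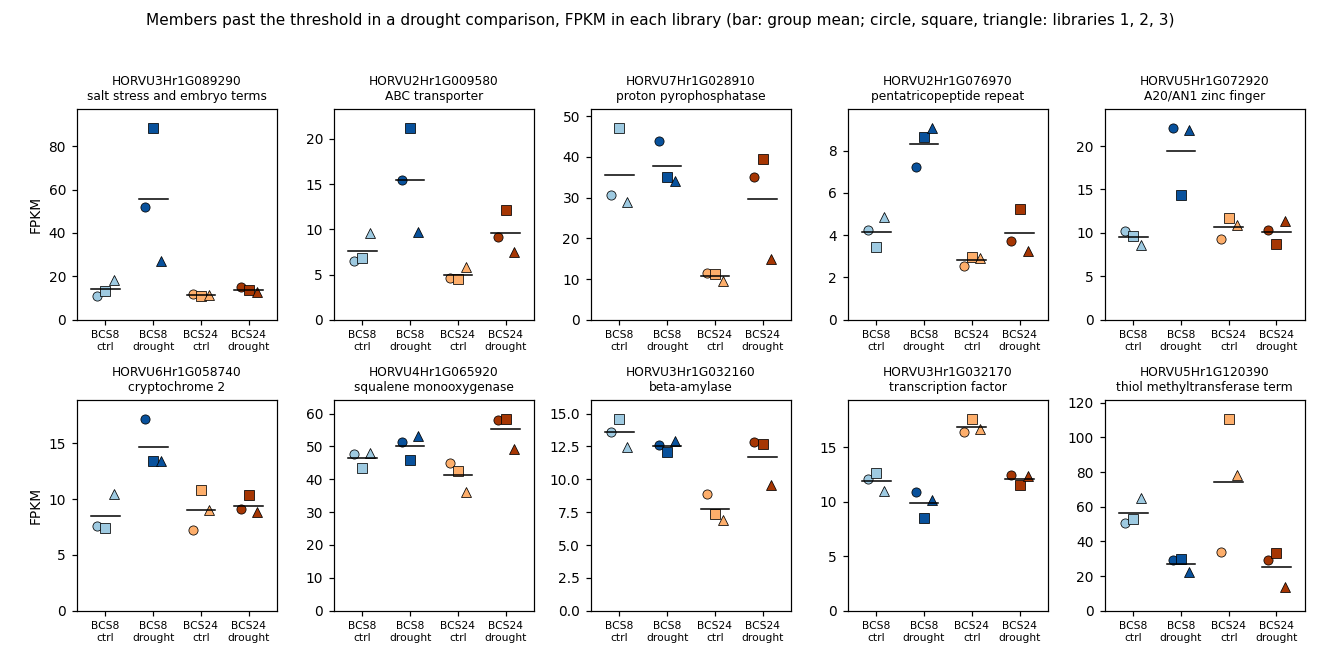
FPKM (y axis, linear, from 0) in each library for the 10 members past the threshold in BCS8, in BCS24 or in the mean drought effect, by group (x axis), with bars at the group means and markers for libraries 1 to 3. HORVU3Hr1G089290 reached 88.4 FPKM in BCS8 drought 2, while HORVU7Hr1G028910 and HORVU3Hr1G032160 were lowest in the 3 BCS24 control libraries.

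Averaged over both accessions, 7 members rose and 2 fell, 11.1% of the members beside 6.87% of all tested genes (4% higher and 2.87% lower). This mean effect shares all its libraries with the comparisons within accessions. It raised the 3 genes called in BCS8 and 2 of the 3 called in BCS24, and added HORVU2Hr1G009580, HORVU6Hr1G058740, HORVU5Hr1G120390 and HORVU3Hr1G032170. Limma on log2(FPKM + 1) called 4 higher and 6 lower. It also called fewer of all tested genes higher (2.88%) than lower (5.82%), with their median at −0.06, so the turned split is shared by all genes on that scale. Leaving out 1 library moved the count between 3 and 11, with 3 left without BCS8 control 1, BCS24 control 2, BCS24 control 3 or BCS24 drought 1. All tested genes had 693 higher and 498 lower calls with all libraries. In these fits they had 289 and 240, 298 and 251, 290 and 224, and 394 and 352. Other member counts under 7 came without BCS8 control 2 (6), BCS8 control 3 (6), BCS8 drought 1 (4), BCS8 drought 3 (5), BCS24 control 1 (6) and BCS24 drought 2 (5). The mean effects of HORVU2Hr1G009580, HORVU2Hr1G076970 and HORVU3Hr1G089290 were past the threshold in all 19 alternatives tried.

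HORVU2Hr1G009580 (2H, 18305107 to 18522656, plus strand) carries the terms of an ABC transporter, a pump that moves conjugates across the vacuole and plasma membranes. It stood at 6.46, 6.87 and 9.55 FPKM in BCS8 control and at 15.4, 21.2 and 9.72 FPKM in BCS8 drought. In BCS24 it stood at 4.67, 4.47 and 5.80 FPKM in control and at 9.20, 12.2 and 7.54 FPKM under drought. Drought libraries lay above control in both accessions, by 1.05 ± 0.27 and 1.07 ± 0.28, neither past the threshold alone. The mean effect was 1.06 ± 0.19 (edgeR adjusted p = 0.0128).

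HORVU6Hr1G058740 (6H, 384632176 to 384638592, minus strand) is described as cryptochrome 2, a blue light receptor. Its control libraries stood at 7.61, 7.43 and 10.5 FPKM in BCS8 and its drought libraries at 17.2, 13.4 and 13.4 FPKM. In BCS24 control and drought overlapped, at 7.25, 10.8 and 9.06 FPKM against 9.07, 10.4 and 8.80 FPKM. The mean effect was 0.50 ± 0.13 (edgeR adjusted p = 0.0491), and it was past the threshold in 4 of 19 alternatives. The cryptochromes HORVU2Hr1G079220 and HORVU6Hr1G049950, which share another orthology number, both had a mean effect of −0.21 and did not pass.

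HORVU5Hr1G120390 (5H, 657521126 to 657523374, plus strand) fell by 1.22 ± 0.28 on the log2 scale (edgeR adjusted p = 0.0286). It moved from 50.6, 53.1 and 64.9 FPKM to 29.1, 29.6 and 22.3 FPKM in BCS8 and from 33.6, 111 and 78.3 FPKM to 29.0, 33.4 and 14.0 FPKM in BCS24. Drought libraries were below control in both accessions, in BCS24 narrowly. The table gives it the terms of a thiol methyltransferase together with those of poly(ADP-ribose) glycohydrolase. The latter are also those of HORVU5Hr1G120400, which lies on the other strand, covers 98.4% of it and stood between 1.22 and 2.20 FPKM. The glycohydrolase gene, also a member, did not pass in any comparison. The water deprivation term of HORVU5Hr1G120390 may come from that overlapping gene. The fall of HORVU5Hr1G120390 is therefore not shown to be that of a water deprivation gene.

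HORVU3Hr1G032170 (3H, 163381976 to 163386815, plus strand) is annotated as a transcription factor of nitrate assimilation and stomatal movement. It lay at 12.1, 12.6 and 10.9 FPKM in BCS8 control and at 10.9, 8.54 and 10.2 FPKM under drought. In BCS24 it lay at 16.4, 17.6 and 16.7 FPKM in control and at 12.5, 11.5 and 12.3 FPKM under drought. The mean effect was −0.29 ± 0.08 (edgeR adjusted p = 0.0482), past the threshold in 5 of 19 alternatives. It lies inside the beta-amylase gene on the opposite strand, and whether reads were counted by strand is not given in the sources used here.

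**Figure D2:**
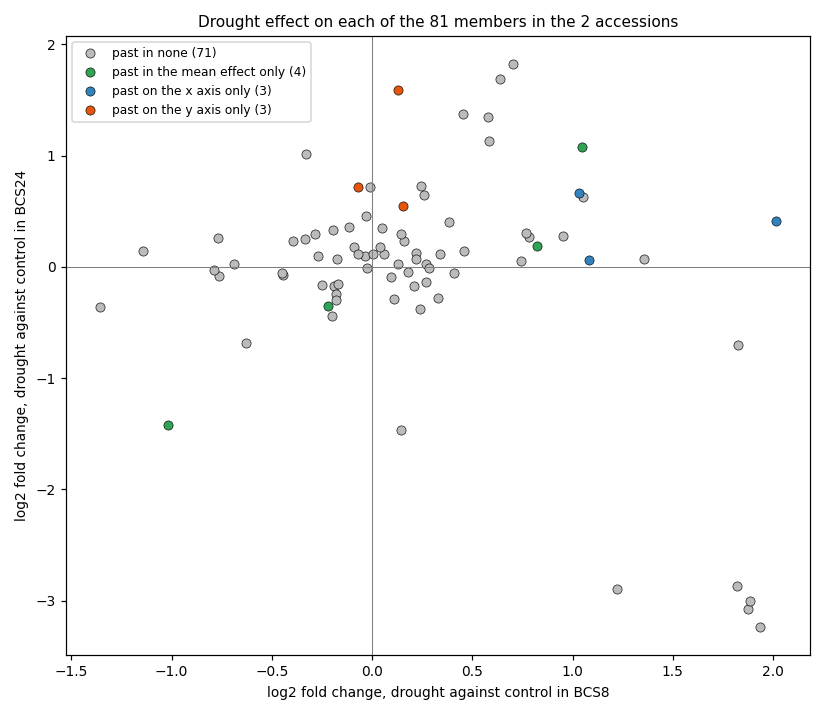
Log2 fold change of drought against control in BCS8 (x axis) and in BCS24 (y axis) for each of the 81 members, coloured by the test passed. The 3 genes called in BCS8 and the 3 called in BCS24 are different genes, 4 more were called in the mean effect alone, and the 4 genes of the pathogenesis-related family lie at the lower right, past the threshold on neither axis.

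The accessions were not shown to differ in their drought response for any member. The interaction had 0 members and 0% of all tested genes past the threshold in edgeR, with the lowest adjusted p at 0.200, for beta-amylase HORVU3Hr1G032160 (0.79 ± 0.18). At an unadjusted p below 0.05 it held 9 members with a positive and 10 with a negative difference, BCS24 minus BCS8 (23.5% in all, beside 12.5% of all tested genes). DESeq2 called 4 positive and 3 negative (8.64%, beside 3.63%). For HORVU7Hr1G028910 the difference was 1.45 ± 0.43, and for HORVU3Hr1G089290 it was −1.61 ± 0.47 (both edgeR adjusted p = 0.225). The A20/AN1 gene HORVU5Hr1G072920 stood at −1.03 ± 0.26, with the same adjusted p.

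By role, few members of a group moved together past the threshold. The 4 nitrate transporters had negative drought effects in BCS8, from −0.77 to −0.28, and 0 passed. Of 4 genes for protein kinases, 0 passed for drought against control in either accession. The same held for 4 protein phosphatases and 8 chromatin and nuclear regulators. Of all tested genes 1.53% were called in BCS8 and 2.65% in BCS24, a share at which groups this small would mostly hold no call. Among the phosphatases HORVU1Hr1G059130, which carries terms for growth and for microtubule binding, had the largest effect in BCS8 (1.05 ± 0.33, edgeR adjusted p = 0.154), from 4.52, 5.35 and 5.41 FPKM to 9.28, 9.52 and 11.9 FPKM. The 4 cuticle ubiquitin ligases, annotated to wax, cutin and suberin synthesis, stayed between −0.27 and 0.33 in both accessions. The vacuolar pyrophosphatase HVP1, HORVU7Hr1G115540, stood at 0.29 ± 0.32 in BCS8 and −0.01 ± 0.32 in BCS24.

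Among the 8 enzymes of carbon, proline, sterol and lipid metabolism, 2 rose in BCS24 and 0 in BCS8. Proline dehydrogenase HORVU1Hr1G053440, which breaks proline down in mitochondria, stood at 6.96, 8.45 and 8.86 FPKM in BCS8 control and at 13.0, 16.1 and 31.1 FPKM under drought (1.36 ± 0.37, edgeR adjusted p = 0.107). The BCS8 groups lay apart without the test being passed. The lipoxygenase HORVU6Hr1G033600, of the jasmonate pathway, was at 63.7, 61.6 and 46.8 FPKM in BCS8 control and at 34.0, 27.1 and 14.4 FPKM under drought (−1.14 ± 0.55, edgeR adjusted p = 0.336). The carotenoid-cleaving dioxygenase HORVU5Hr1G000320 was abundant and steady, with group means from 156 to 164 FPKM and 0 of 6 comparisons past the threshold.

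**Figure D3:**
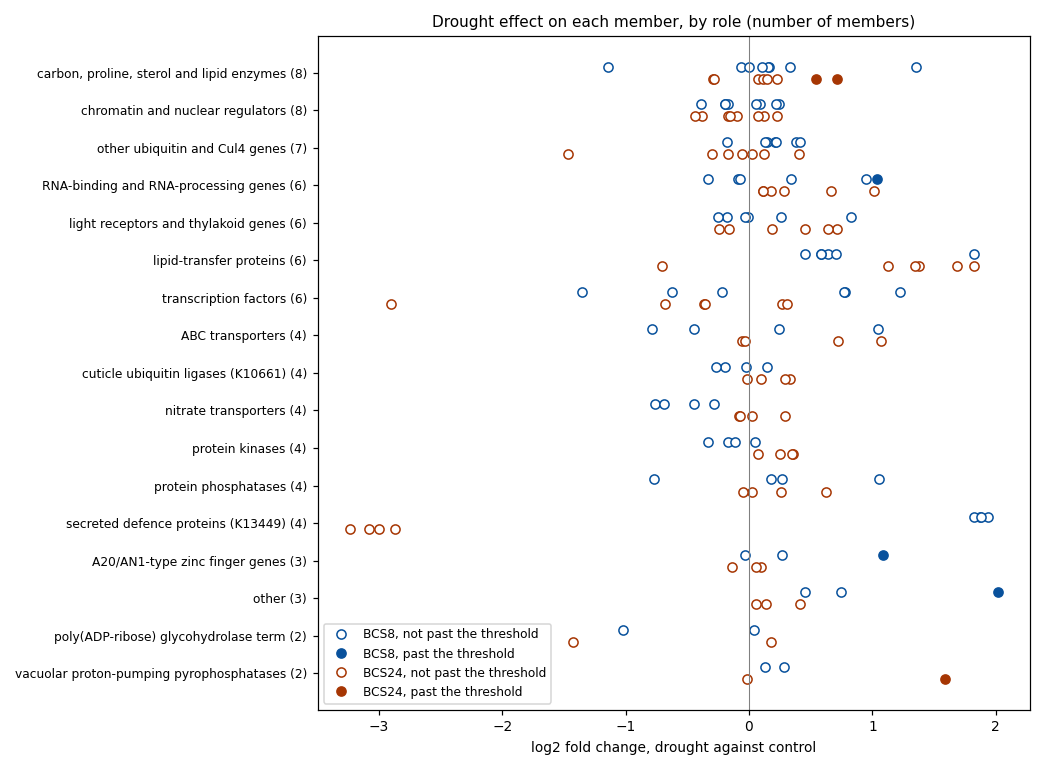
Log2 fold change of drought against control (x axis) for each of the 81 members, by role (y axis, with the number of members), in BCS8 and BCS24. Filled points passed the threshold, 3 in each accession, and the 4 secreted defence proteins lie near 1.88 in BCS8 and −3.04 in BCS24 as open points.

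The 4 members with orthology number K13449, the pathogenesis-related protein 1 family, had the largest accession differences among the members under drought and spread widely between libraries. These are small secreted proteins of the cell wall, known as markers of systemic acquired resistance. HORVU5Hr1G055950 stood at 703, 137 and 864 FPKM in BCS8 control and at 897, 5360.4 and 239 FPKM in BCS8 drought. In BCS24 it stood at 7.18, 30.0 and 337 FPKM in control and at 27.0, 3.37 and 6.78 FPKM under drought. BCS8 drought 2 was far above all others, and control and drought overlapped in both accessions.

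Under drought the 4 genes were lower in BCS24 than in BCS8, with no overlap between the accessions. HORVU5Hr1G055950 was lower by a log2 difference of −7.37 ± 1.84 (edgeR adjusted p = 0.0168), and HORVU5Hr1G056040 by −7.10 ± 1.69 (edgeR adjusted p = 0.0140). HORVU7Hr1G033620 differed by −6.92 ± 1.40 (edgeR adjusted p = 0.00719), and HORVU7Hr1G033530 by −6.71 ± 1.57 (edgeR adjusted p = 0.0131). In control the same differences ran from −2.20 to −2.02, with overlapping groups and none past the threshold. Drought effects ran from 1.82 to 1.94 in BCS8 and from −3.23 to −2.87 in BCS24, none past the threshold either. The interaction, from −5.17 to −4.69, did not pass, so the accession difference was not shown to be larger under drought.

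BCS8 drought 2 weighed on these values. The 4 genes made up 80.0% of the summed FPKM of all members in it and between 0.455% and 40.5% in the other 11 libraries. Without that library the differences under drought were −5.48, −5.29, −5.42 and −5.08, in the order above, and still past the threshold. Without BCS24 drought 3, HORVU5Hr1G055950 and HORVU5Hr1G056040 were not (edgeR adjusted p = 0.0593 and 0.0509). Adding rRNA share as a covariate, the 4 differences shrank to between −4.07 and −3.60 and none passed. BCS8 drought 2 had the highest rRNA share of the 12 libraries (2.22%). The share ran from 0.918% to 2.22% in BCS8 drought and from 0.202% to 0.658% in BCS24 drought, without overlap. Under drought rRNA share thus cannot be told apart from accession, and its part in the result was not tested.

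The 4 genes are not 4 independent readings. They form a pair on 5H (438233585 to 438404116) and a pair on 7H (69084697 to 69305630), and their log2 counts correlated at 0.985 to 0.998 over the 12 libraries, which share depth and library make-up. How reads common to near-identical genes were assigned is not given in the sources used here, so their separate values are uncertain. One transcript of HORVU7Hr1G033530, with 69.0% of the gene's counts, spans 69084725 to 69305623 and so reaches into HORVU7Hr1G033620. In BCS8 drought 2 that transcript was at 1149 FPKM, while the gene's other, single-exon transcript was at 82.7 FPKM, below its 126 FPKM in BCS8 drought 1. Both K13449 genes that passed the filter without carrying the water deprivation term were also highest in library 2 among the BCS8 drought libraries.

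**Figure D4:**
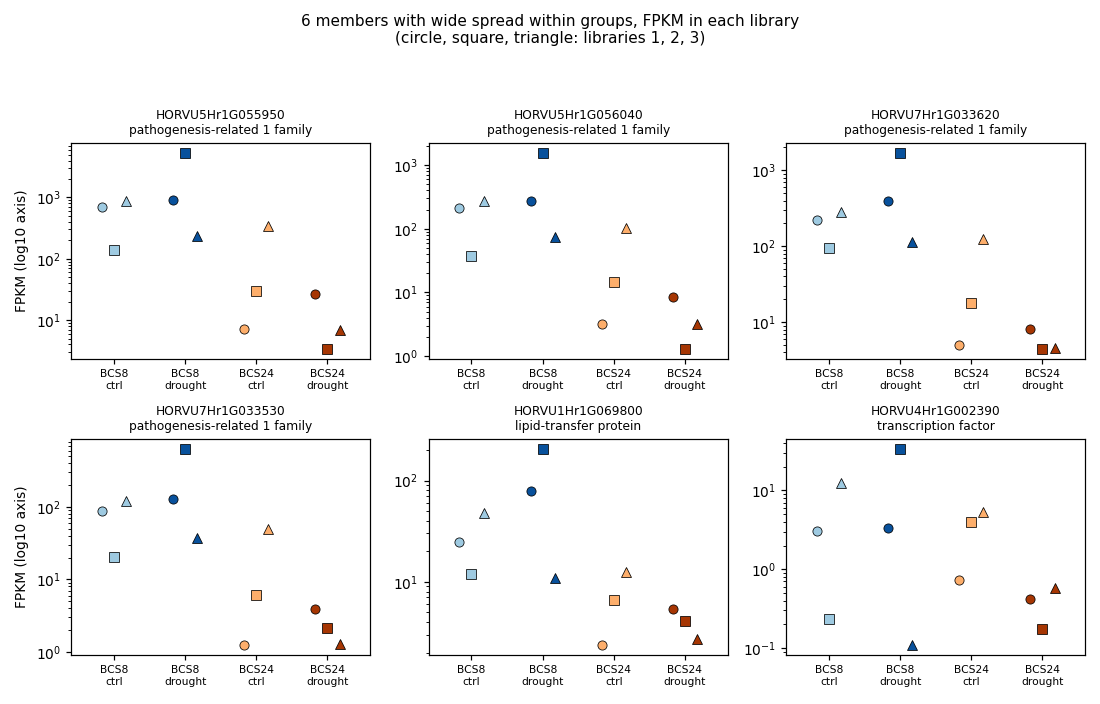
FPKM (y axis, log10 scale) in each library for the 4 genes of the pathogenesis-related protein 1 family, lipid-transfer gene HORVU1Hr1G069800 and transcription factor HORVU4Hr1G002390, by group (x axis), with markers for libraries 1 to 3. BCS8 drought 2 is the highest library in each panel, at 5360.4 FPKM for HORVU5Hr1G055950, and the 3 BCS24 drought libraries lie below the BCS8 drought libraries in the first 5 panels. The panels show 6 of the 8 members with the widest spread within groups. In HORVU3Hr1G009370 and HORVU3Hr1G009520, not shown, BCS8 drought 2 was the lowest of the 12 libraries, at 1.07 and 2.40 FPKM.

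Of 6 genes for lipid-transfer proteins, which bind and carry lipids in the cell wall, 1 differed between the accessions under drought. HORVU1Hr1G069800 (1H, 486927977 to 486929123, minus strand) stood at 78.1, 206 and 11.0 FPKM in BCS8 drought and at 5.38, 4.11 and 2.71 FPKM in BCS24 drought. The groups lay apart, and the difference was −4.51 ± 1.01 (edgeR adjusted p = 0.0108). It shrank to −3.40 without BCS8 drought 2 and to −2.16 with rRNA share as a covariate, where it was not past the threshold. In control the libraries overlapped, at 24.8, 11.9 and 47.3 FPKM against 2.38, 6.60 and 12.6 FPKM.

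The other 5 lipid-transfer genes lie between 20026353 and 20546229 on 3H and had positive differences between BCS24 and BCS8 under drought, from 1.55 to 2.16, none past the threshold. HORVU3Hr1G009520, the most abundant of them, stood at 14.1, 2.40 and 7.11 FPKM in BCS8 drought and at 41.9, 6.53 and 52.4 FPKM in BCS24 drought. Libraries 1 and 3 were high and library 2 low in both drought groups. The spans of these genes overlap on both strands, and their log2 counts correlated at 0.810 to 0.990 over the 12 libraries, so reads may be shared among them. Their drought effects in BCS24 ran from 1.13 to 1.82 and none passed.

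Between the accessions in control, 15 members differed, 6 higher and 9 lower in BCS24. That is 18.5% of the members beside 19.1% of all tested genes, 9.98% higher and 9.15% lower. Under drought 31 differed, 14 higher and 17 lower, or 38.3% beside 27.4% of all tested genes, 13.3% higher and 14.1% lower. Among the 31 are the 4 genes of the pathogenesis-related family and 3 nitrate transporters of 1H. Reads may be shared within each of these sets, so the 31 calls are not independent. Leaving out 1 library moved the control count between 7 and 16, with 10 or fewer left without BCS24 control 2 (7), BCS24 control 3 (8), BCS8 control 3 (9) or BCS8 control 2 (10). The drought count ran from 20 to 36, with 20 left without BCS24 drought 1, and rRNA share as a covariate left 6 (7.41%, beside 8.68% of all tested genes). Over all tested genes, the control calls moved from 1731 higher and 1586 lower to 789 and 613 without BCS24 control 2. The drought calls moved from 2307 and 2442 to 963 and 1073 without BCS24 drought 1. FPKM of the accessions did not overlap for 20 members higher in BCS24 control (24.7%, beside 24.4% of all tested genes) and 18 lower (22.2%, beside 21.7%). Under drought this held for 13 higher (16%, beside 15.5%) and 21 lower (25.9%, beside 22.8%). Called in the same direction in both conditions were 4 higher and 4 lower members, and 0 in opposite directions. The same overlap was not counted over all tested genes, so it is not shown to be particular to the members.

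HORVU2Hr1G094390 (2H, 664802578 to 664808546, minus strand), annotated to nucleosome assembly, the packing of DNA in chromatin, had the largest difference in control. It stood at 1.37, 1.13 and 1.18 FPKM in BCS8 control and at 5.55, 5.90 and 6.13 FPKM in BCS24 control. Under drought it stood at 1.63, 0.974 and 1.58 FPKM against 4.71, 3.34 and 4.32 FPKM. All 6 BCS24 libraries were above all 6 BCS8 libraries, by 2.23 ± 0.23 in control (edgeR adjusted p = 0.000108) and 1.61 ± 0.22 under drought (edgeR adjusted p = 0.000870). The neighbouring member HORVU2Hr1G094400 did not differ past the threshold in either condition.

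Among the kinases, HORVU5Hr1G065350, described as a serine/threonine kinase and annotated to auxin transport, was higher in BCS24. Control libraries stood at 4.82, 3.66 and 4.23 FPKM in BCS8 and at 9.86, 7.13 and 9.33 FPKM in BCS24 (1.04 ± 0.17, edgeR adjusted p = 0.00246). Under drought the values were 4.14, 4.18 and 3.08 FPKM against 11.4, 9.29 and 10.2 FPKM (1.51 ± 0.17, edgeR adjusted p = 0.000205). The chloroplast kinase HORVU7Hr1G021530 went the other way, at −0.84 ± 0.12 in control and −0.55 ± 0.12 under drought, and passed in both.

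The vacuolar pyrophosphatases stood in opposite order in control. HVP1 was higher in BCS24, at 188, 162 and 183 FPKM against 95.0, 59.2 and 77.6 FPKM in BCS8 (1.19 ± 0.33, edgeR adjusted p = 0.0313). HORVU7Hr1G028910 was lower in BCS24, at 11.5, 11.2 and 9.46 FPKM against 30.7, 47.1 and 28.8 FPKM (−1.74 ± 0.31, edgeR adjusted p = 0.00452). Under drought neither difference passed, at 0.89 ± 0.33 and −0.28 ± 0.30. The HVP1 call in control was lost without any 1 of BCS8 control 2, BCS8 control 3 and the 3 BCS24 control libraries, with adjusted p-values up to 0.107. The control difference and the drought rise of HORVU7Hr1G028910 in BCS24 share the BCS24 control libraries.

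Lower in BCS24 control were also the thylakoid gene HORVU3Hr1G078200, annotated to photooxidative stress and heat acclimation, and the RNA-binding gene HORVU7Hr1G043280. The first stood at 46.2, 44.4 and 51.3 FPKM in BCS8 control and at 31.5, 22.5 and 22.7 FPKM in BCS24 control (−0.90 ± 0.17, edgeR adjusted p = 0.00528). In BCS24 drought it stood at 35.5, 40.8 and 39.1 FPKM, so that its 3 BCS24 control libraries were the lowest of the 12. HORVU7Hr1G043280 stood at 14.0, 16.9 and 11.9 FPKM against 7.77, 7.55 and 7.82 FPKM in control (−0.90 ± 0.15, edgeR adjusted p = 0.00331) and differed by −0.63 ± 0.15 under drought.

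Low levels marked 2 more of the named genes. HORVU0Hr1G003810, described as a RING-type E3 ubiquitin transferase, stood at 0.216, 0.742 and 0.365 FPKM in BCS8 control and at 1.15, 2.26 and 1.69 FPKM in BCS24 control (1.92 ± 0.57, edgeR adjusted p = 0.0398). Transcription factor HORVU5Hr1G096420 stood at 1.87, 2.14 and 1.43 FPKM against 0.410, 0.846 and 0.877 FPKM in control (−1.35 ± 0.41, edgeR adjusted p = 0.0437). It differed by −1.81 ± 0.41 under drought (edgeR adjusted p = 0.0118). The control calls were past the threshold in 13 and 10 of 20 alternatives, with the adjusted p reaching 0.130 and 0.120.

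Under drought, proline dehydrogenase HORVU1Hr1G053440 was lower in BCS24, at 3.70, 6.34 and 3.85 FPKM against 13.0, 16.1 and 31.1 FPKM in BCS8 (−2.05 ± 0.38, edgeR adjusted p = 0.00487). The accessions overlapped in control. HORVU3Hr1G089290 was lower as well (−1.92 ± 0.34, edgeR adjusted p = 0.00384), with no overlap, and reached an adjusted p of 0.0814 with rRNA share as a covariate. This difference shares the BCS8 drought libraries with the rise of the gene in BCS8.

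Nitrate transporters carry nitrate into and between cells, and 3 of the 4 were higher in BCS24 under drought, beside 13.3% of all tested genes. HORVU1Hr1G053990 stood in BCS8 and BCS24 drought at 0.943, 0.347 and 0.580 FPKM against 2.11, 2.05 and 1.73 FPKM (1.71 ± 0.34, edgeR adjusted p = 0.00631). HORVU1Hr1G054000 and HORVU1Hr1G054020 differed by 1.66 ± 0.33 and 0.84 ± 0.19, and both lie within the span of HORVU1Hr1G053990 on the other strand. The 3 values may therefore share reads. In control the BCS24 libraries of these 3 genes also lay above the BCS8 libraries, with none past the threshold. There HORVU1Hr1G053990 stood at 2.03, 2.43 and 2.31 FPKM against 1.47, 1.08 and 0.763 FPKM in BCS8. The interaction did not pass for any of them, so the difference was not shown to be larger under drought. HORVU7Hr1G071600, on 7H, was lower in BCS24 in control (−0.83 ± 0.26, edgeR adjusted p = 0.0469) and not past the threshold under drought.

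**Figure D5:**
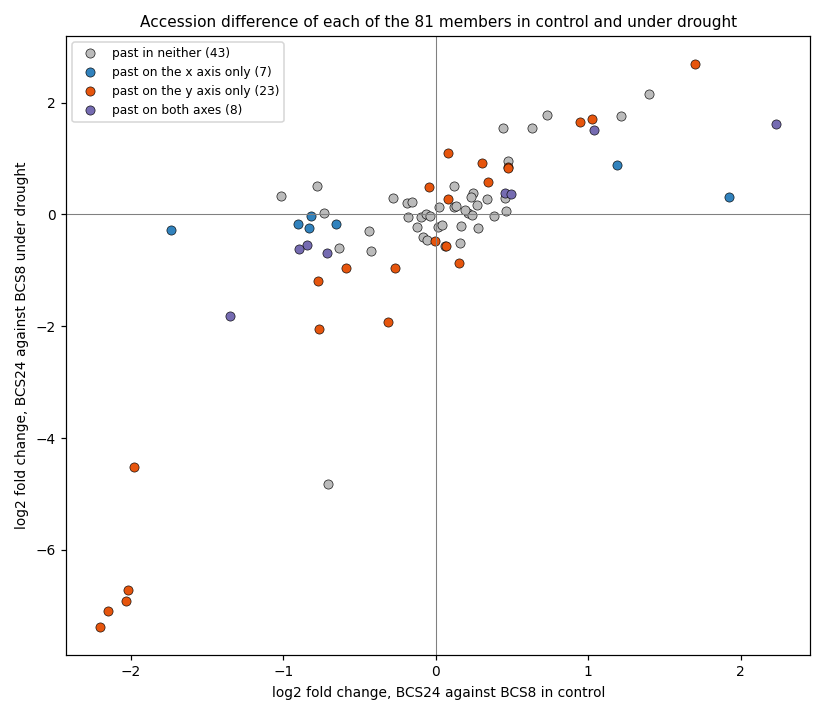
Log2 fold change of BCS24 against BCS8 in control (x axis) and under drought (y axis) for each of the 81 members, coloured by the test passed. Passed in both conditions were 8 members, all with the same sign, a count not made over all tested genes. The 4 genes of the pathogenesis-related protein 1 family lie at the lower left, near −2 in control and −7 under drought.

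Levels of the members ranged widely. The median of their mean FPKM over the 12 libraries was 10.7, with 44 members at 10 or more and 6 at 100 or more. The highest mean, 897 FPKM, was that of HORVU6Hr1G033160, at 799, 641 and 795 FPKM in BCS8 control and 1081, 1047 and 1367 FPKM in BCS24 drought. The table gives this ID the terms of light harvesting in photosystem I together with those of dolichol synthesis. Only 21 of its counts, or 0.000684%, fell on transcripts with the orthology number of dehydrodolichyl diphosphate synthase. Whether the ID has its water deprivation term from that part of the annotation was not tested. The drought effect of HORVU6Hr1G033160 in BCS24 was 0.64 ± 0.23 (edgeR adjusted p = 0.155).

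Within groups, the SD of log2(FPKM + 1), pooled over the 4 groups, had a median of 0.228 over the members, and 8 members exceeded 1. These were the 4 genes of the pathogenesis-related family, HORVU1Hr1G069800, HORVU3Hr1G009370, HORVU3Hr1G009520 and transcription factor HORVU4Hr1G002390. The last stood at 3.33, 33.9 and 0.110 FPKM in BCS8 drought and at 0.415, 0.176 and 0.577 FPKM in BCS24 drought (−4.83 ± 1.79, edgeR adjusted p = 0.0679). Its groups overlapped, and BCS8 drought 2 was again the highest library. For HORVU3Hr1G009370 and HORVU3Hr1G009520 that library was the lowest of the 12.

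Of the other genes of the pathway, 118 with the water deprivation term were kept by the filter and left out by the rule. Drought raised 11 and lowered 4 of them in BCS8 (9.32% and 3.39%), and raised 9 and lowered 1 in BCS24 (7.63% and 0.847%). Of the members, 3.7% were higher and 0% lower in each accession. All tested genes stood at 0.998% and 0.536% in BCS8 and at 1.4% and 1.25% in BCS24. The medians of the left-out genes were 0.14 and 0.10, against 0.15 and 0.10 for the members. Of 291 further salt stress genes 5 rose and 6 fell in BCS8 (1.72% and 2.06%), and 6 rose and 6 fell in BCS24 (2.06% each). Of 85 osmotic stress genes 7 rose and 2 fell in BCS8 (8.24% and 2.35%), and 6 rose and 0 fell in BCS24 (7.06% and 0%). The 214 genes of the response to ABA without ABA signalling had 7 rises and 1 fall in BCS8 (3.27% and 0.467%). In BCS24 they had 6 rises and 9 falls (2.8% and 4.21%). The 9 desiccation genes had medians of 1.34 and 0.83, with 1 rise in BCS8 (11.1%) and 1 fall in BCS24 (11.1%).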

How the data were processed

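Leaf RNA of 12 libraries was measured, with 3 libraries in each of 4 groups. Per the labels' protocols, poly(A) RNA was read from stranded libraries. The submitters' processing notes name StringTie 2.1.6, DESeq2 and edgeR with no roles. Aligner, build and handling of shared reads: not given in the sources used here. Coordinates follow the deposited table. Per the file headers, the authors deposited whole-number counts and FPKM per gene and per transcript. FPKM values are printed as deposited.

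The 17342 genes that reached 1 FPKM in 3 or more libraries were tested. The test was edgeR's quasi-likelihood F (edgeR 4.0.16, R 4.3.3) on TMM-scaled counts. A single fit held the 12 libraries and a coefficient for each of the 4 groups, with 8 residual and 2.47 prior degrees of freedom. Benjamini-Hochberg adjustment ran over the 17342 genes, and the threshold was 0.05. Errors are the log2 fold change over the square root of F. Alternatives were DESeq2 1.42.0, limma 3.58.1, other scaling and filters, the replicate number as a block, rRNA share as a covariate and leaving out each library.

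The members and gene lists were chosen with earlier results of these data known. Named genes are members past the threshold under drought, the 8 largest differences without overlap in each accession comparison, and the 5 highest in mean FPKM. Others are named for their role or spread, after their values were seen. In simulated data of 17342 genes the same test found 28% of genes changed 2-fold and 85% of those changed 4-fold in BCS8. The shares were 32% and 86% for BCS24 and 57% and 94% for the mean effect, with 1.67% to 3.82% of calls false. The simulated libraries were drawn independently, and 200 genes were changed alike in both accessions. They held no accession difference and no variation in rRNA share. The share of false calls is therefore not shown to hold for the real libraries. Deviations from the group means correlated between same-numbered drought libraries of the accessions (0.150, 0.337 and 0.225). The labels state no pairing, and other pairs of groups did not correlate for every number.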

Additional observations from a re-analysis of the deposited data

How the results depend on the processing

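Of the 31 results of named genes past the threshold, which were the values of single genes recomputed under the alternatives, none changed sign. They were chosen because they had passed, and the alternatives reuse the same libraries or all but 1, so a kept sign is no separate evidence. Of the 31, 9 were past the threshold in each alternative and 22 were lost in at least 1. With DESeq2 the members called numbered 11 in BCS8, 9 in BCS24, 16 in the mean effect and 7 in the interaction, beside 6.83%, 10.4%, 13.5% and 3.63% of all tested genes. With rRNA share as a covariate they numbered 0 in BCS8, 0 in BCS24 and 6 between the accessions under drought, beside 0.167%, 0.0865% and 8.68%. With only the libraries of the groups compared they numbered 0 in BCS8, 1 in BCS24 and 16 between the accessions under drought, beside 0.0115%, 2.34% and 10.7%. Testing genes without a filter on low values left 5 in the mean effect, beside 3.19%. With the replicate number as a block 1 member passed in BCS8, 2 in BCS24, 8 in the mean effect, 0 in the interaction, 12 between the accessions in control and 30 under drought, where 27 were shared with the unblocked fit. The labels state no pairing, so it is not known for any groups whether the same number marks a shared block. Leaving out 1 library gave 0 to 4 members in BCS8, 0 to 6 in BCS24, 3 to 11 in the mean effect, 0 in the interaction, 7 to 16 between the accessions in control and 20 to 36 under drought. The cause of these changes was not tested. All libraries enter the mean effect and the interaction, so the fit with only the groups compared gave no further value for them. At 3 libraries a group, most 2-fold changes in 1 accession were missed in the simulated data. No lack of change is shown for members that did not pass.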

Other observations

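Transcripts of the members were not tested. In the deposited transcript table the counts of each member's transcripts summed to the gene's count within 1 count, and 14 members had 1 transcript. Each transcript of the 81 members carried the water deprivation term. These include the 10 transcripts of HORVU6Hr1G033160 with its light-harvesting orthology number, so the term does not tell the transcripts of a gene apart. HORVU3Hr1G089290 had 3 transcripts, of which HORVU3Hr1G089290.3 held 77.0% of the counts. That transcript stood at 9.14, 15.4 and 14.7 FPKM in BCS8 control and at 48.4, 77.1 and 20.8 FPKM under drought. HORVU3Hr1G089290.1 stood at 3.10, 0 and 7.01 FPKM and at 9.16, 28.9 and 11.0 FPKM in the same libraries. Both were higher in each drought library than in any control library.

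The vacuolar pyrophosphatase HORVU7Hr1G028910 had 8 transcripts. HORVU7Hr1G028910.3, with 66.8% of its counts, stood at 15.1, 7.95 and 14.0 FPKM in BCS24 control and at 42.4, 34.4 and 15.7 FPKM under drought. HORVU7Hr1G028910.1 stood at 1.59, 10.5 and 0.792 FPKM and at 17.5, 28.8 and 7.81 FPKM. For the first the drought libraries lay above control, and for the second BCS24 control 2 lay above drought 3.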
